A study of Homo sapiens with 18 samples.

Results

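The CpG effect that HG3, MEC2 and PCL12 cells had in common was taken from all 18 libraries of the series, 9 from stimulated and 9 from unstimulated cells. Each stimulated library was set against the unstimulated library of the same cell line and replicate number, which gave 9 pairs, and 1 common effect was estimated over them. Of 56609 gene symbols in the table, the 13984 with a mean of at least 1 CPM over the 18 libraries were tested (CPM, counts divided by library size after TMM scaling). All 3 lines are EBV-positive lines of chronic lymphocytic leukemia (CLL), a disease of mature B cells. The IGHV genes of MEC2 are mutated and those of HG3 and PCL12 are unmutated. Stimulated cells received CpG-ODN2006 at 2.5 µg/ml for 4 h, and the control cells of each line were left unstimulated, with 3 libraries in each of the 6 groups. The study asked which genes TLR9 signaling changes in these lines. Each line stands for 1 patient's leukemia, so the pooled effect describes these 3 lines. No source says that the replicates were separate cultures, and p values measure the spread between these pairs.

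ODN2006 is a synthetic oligonucleotide with unmethylated CpG motifs, the ligand of TLR9, a receptor in the endosomes of B cells. TLR9 signals through MYD88 and IRAK kinases to NF-κB and to MAP kinases. NF-κB first induces its own inhibitors, short-lived cytokine transcripts and surface molecules of activated B cells, and at 4 h such early targets are usually measurable.

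Total counts per library ran from 20382943 to 67308932, and the tested genes held 99.5% to 99.8% of them. A count of 0 allows up to 3 counts, 0.0446 to 0.147 CPM depending on the library, for counting error only. Some libraries stood apart. In the PCL12 libraries of replicates 2 and 3, 45 genes picked for being abundant in MEC2 and low in the libraries of PCL12 replicate 1 (a selection that fixes their low level in replicate 1) reached a median of 29.0% to 31.3% of the MEC2 level, stimulated and unstimulated alike. Whether cells or libraries of MEC2 were the source was not tested. Counts on mitochondrially encoded genes made up 20.2% of the library of HG3 replicate 2 without CpG and 19.7% of that of MEC2 replicate 2 with CpG, and 2.82% to 9.28% of the others. Over the 9 pairs this share was 7.74% ± 4.87 (SD, n = 9) with CpG and 8.28% ± 4.71 without, and was higher with CpG in 2 pairs (exact sign-flip permutation test, two-sided, p = 0.66, smallest possible p 0.0039). The difference of -0.543 percentage points turned to 0.753 without HG3 replicate 2, and was -2.14 without MEC2 replicate 2. In the pairs of these 2 libraries, the log2 ratios of all genes were spread most (SD 1.18 and 0.981, against 0.435 to 0.647 in the other 7 pairs). The 12 B-cell and CLL markers summed to between 2812 and 4216 CPM with CpG and between 2820 and 5725 CPM without. CD5, which CLL cells usually carry, averaged 46.8 CPM in HG3, 0.759 CPM in PCL12 and 0.0862 CPM in MEC2. Of 13 T and NK cell markers 9 averaged under 1 CPM over the 18 libraries, as did 11 of 12 myeloid and 5 of 12 stromal and epithelial markers. Among the others, TRAC averaged 101, 54.0 and 76.9 CPM in HG3, MEC2 and PCL12, and PRF1 79.1 CPM in MEC2. COL1A1 averaged 46.1 CPM in HG3.

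Few genes passed an adjusted p of 0.05 in the pooled fit, a number that depended on the tool and on single pairs. The 5 smallest p values belonged to cytokine genes and regulators of NF-κB (TNF, ZC3H12A, NFKBIZ, MAP3K8 and LTA). At an adjusted p under 0.05, 13 genes rose with CpG (0.093% of the genes tested) and 2 fell (0.0143%). Those that rose were NFKBIZ, ZC3H12A, MAP3K8, TNF, LTA, CXCL8, CXCR5, PMAIP1, TCFL5, MFSD2A, SGK1, MDFIC and INSIG1, with a Log2FC of 0.50 to 1.52. TRIB2 and CD180 fell. Of these 15 genes, 14 had the same direction in all 9 pairs and CXCL8 had it in 8. The test was edgeR's quasi-likelihood test with a block for each pair, and a nominal p under 0.05 was reached by 860 genes, 498 higher and 362 lower. MDFIC was the last gene inside the threshold (adjusted p = 0.0462). CD83, a surface marker of activated B cells, was the first outside it (Log2FC 0.74 ± 0.13 SE, adjusted p = 0.0512).

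The number of genes past the threshold depended on single pairs. Leaving out PCL12 replicate 1 left none of them past an adjusted p of 0.05, and so did leaving out PCL12 replicates 2 and 3 together. In the latter fit of 7 pairs, the nominal p values of the 15 genes lay between 6.5e-06 and 0.00084 and their adjusted p values between 0.0916 and 0.426, for genes that had been called with these pairs included. Without 1 pair, 1 gene rose and none fell when MEC2 replicate 3 was left out, 3 and none for MEC2 replicate 1 or PCL12 replicate 2, and 4 and none for PCL12 replicate 3. Without HG3 replicate 1, 4 genes rose and 1 fell, and without MEC2 replicate 2, 9 rose and 1 fell. Without both pairs rich in mitochondrial counts, 15 genes rose and 3 fell, and 11 of the 15 genes were among them. NFKBIZ, CXCR5, CXCL8 and MDFIC were not (adjusted p = 0.0639 each). With a filter of at least 10 counts summed over the libraries, 48 genes rose and 5 fell, and NFKBIZ was again outside (adjusted p = 0.0654). Without the block for pairs, 3 genes rose and none fell, and DESeq2 and limma-voom with the block gave 109 and 37 higher and 23 and 6 lower genes, which included all 15.

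**Figure D1:**
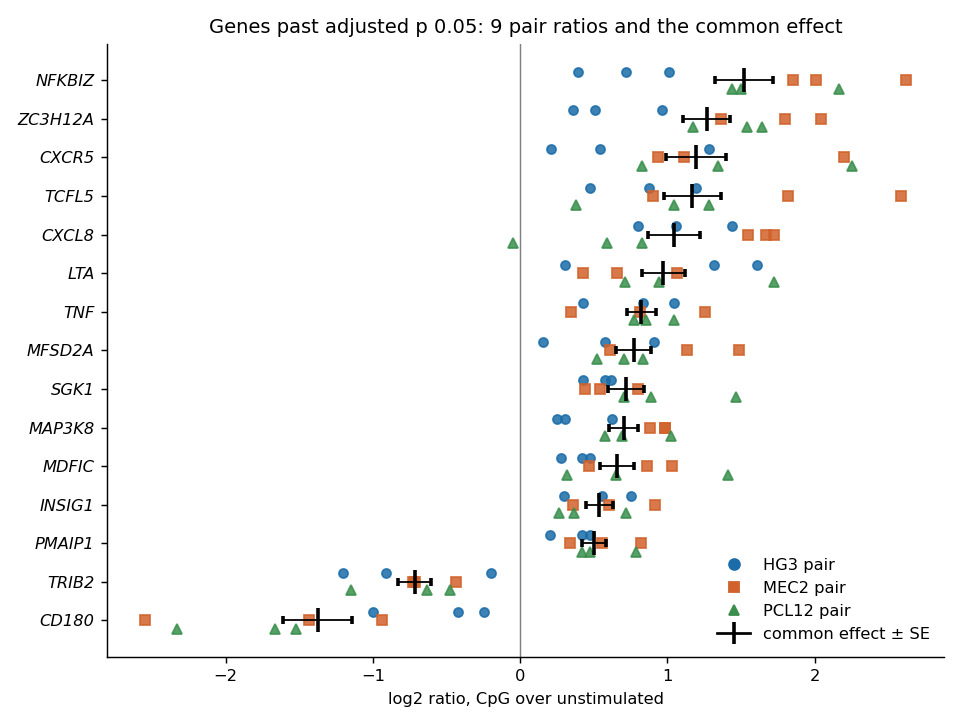
Log2 ratio of CpG over unstimulated CPM in each of the 9 pairs (blue circles HG3, orange squares MEC2, green triangles PCL12) for the 15 genes with an adjusted p under 0.05, with the common Log2FC and its SE in black. All points of a gene lie on 1 side of 0 except for CXCL8 in 1 PCL12 pair.

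NFKBIZ had the largest of these changes. It encodes IκBζ, an atypical IκB protein that acts in the nucleus and promotes the transcription of secondary NF-κB targets. Its level was 24.4 CPM in the lowest, 38.9 in the median and 219 in the highest unstimulated library, and 88.3, 175 and 288 CPM with CpG. The lowest unstimulated libraries were those of MEC2 (24.4, 25.0 and 35.4 CPM) and the highest those of HG3 (104, 126 and 219 CPM), so that unstimulated HG3 overlapped with stimulated MEC2 and PCL12. Within each pair the CpG library was the higher, by 0.40 to 1.01 on the log2 scale in HG3, 1.85 to 2.62 in MEC2 and 1.44 to 2.17 in PCL12. The common Log2FC was 1.52 ± 0.20 (SE, adjusted p = 0.0085). The paper reports no significant rise of NFKBIZ in HG3 by sequencing, unlike in MEC2 and PCL12. It describes low or no induction in HG3 by real-time PCR, and no induction of the IκBζ protein there. The paper also found no differentially expressed gene common to all the lines.

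ZC3H12A encodes Regnase-1, a ribonuclease that degrades transcripts of inflammatory genes and is itself an NF-κB target. It lay between 33.2 and 102 CPM in unstimulated cells (median 59.6) and between 91.3 and 208 CPM with CpG (median 139). Its ratio was above 1 in all pairs, lowest in HG3 replicate 2 (0.36 on the log2 scale) and highest in MEC2 replicate 2 (2.04), with a common Log2FC of 1.27 ± 0.16 (adjusted p = 0.0085). MAP3K8, the kinase that couples NF-κB1 p105 to the activation of ERK, went from 35.6 to 81.5 CPM (median 59.2) to between 57.5 and 126 CPM (median 94.2). Here the groups overlapped, but the CpG library was the higher in every pair, by 0.25 to 1.02 on the log2 scale (Log2FC 0.70 ± 0.099, adjusted p = 0.0157).

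The cytokine genes TNF and LTA lie next to each other on chromosome 6 and encode ligands of the TNF receptors. TNF had the smallest p of all genes. It was at 21.97 to 78.2 CPM (median 51.5) without and 38.7 to 165 CPM (median 71.0) with CpG, and the 3 HG3 controls were close together (50.9, 51.5 and 53.0 CPM). The pooled ranges overlapped, and PCL12 was the lowest line, at 21.97, 25.5 and 22.6 CPM without and 39.8, 52.5 and 38.7 CPM with CpG. The Log2FC of TNF was 0.82 ± 0.099 (adjusted p = 0.0085), with log2 ratios of 0.34 to 1.25 in the pairs. LTA was at 15.1 to 77.5 CPM (median 39.2) without CpG and at 29.1 to 138 CPM (median 64.5) with it. Its log2 ratio was high in HG3 replicates 1 and 2 (1.61 and 1.31) and PCL12 replicate 1 (1.72), and low in HG3 replicate 3 (0.30), for a Log2FC of 0.97 ± 0.14 (adjusted p = 0.0224).

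CXCL8, the chemokine that attracts neutrophils, differed widely in level between the libraries. Unstimulated libraries ran from 0.369 CPM in MEC2 to 56.2 CPM in PCL12 (median 5.57), and stimulated ones from 1.19 to 84.8 CPM (median 15.3). It was higher with CpG by 0.80 to 1.44 in HG3 and by 1.55 to 1.72 in MEC2 on the log2 scale, whereas the PCL12 pairs gave 0.83, 0.59 and -0.05. The common Log2FC was 1.04 ± 0.18 (adjusted p = 0.0397).

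A pair of receptor genes moved in opposite directions. CXCR5, the receptor for CXCL13 that leads B cells into follicles, was at 1.90 to 15.7 CPM (median 6.20) in unstimulated and 3.62 to 53.6 CPM (median 11.9) in stimulated cells. MEC2 replicate 1 and PCL12 replicate 1 gave the highest log2 ratios (2.20 and 2.25) and HG3 replicate 3 the lowest (0.21), with a Log2FC of 1.20 ± 0.20 (adjusted p = 0.0397). CD180 encodes a relative of the Toll-like receptors on the B-cell surface that has no signaling domain of the TLR type. It went from 1.92 to 25.7 CPM (median 11.7) to between 0.724 and 8.16 CPM (median 4.04). The fall was seen in all 9 pairs and was smallest in HG3 replicates 2 and 3 (log2 ratios -0.42 and -0.24) and largest in MEC2 replicate 2 and PCL12 replicate 1 (-2.55 and -2.33), for a Log2FC of -1.37 ± 0.24 (adjusted p = 0.0397). LY86, chosen after its values were seen, encodes MD-1, the protein that binds CD180. It was lower with CpG in 9 of 9 pairs as well, with means of 40.02 and 49.0 CPM, and its log2 ratio was -1.68 in MEC2 replicate 2 and -0.85 or closer to 0 elsewhere (Log2FC -0.37 ± 0.15, adjusted p = 0.742).

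**Figure D2:**
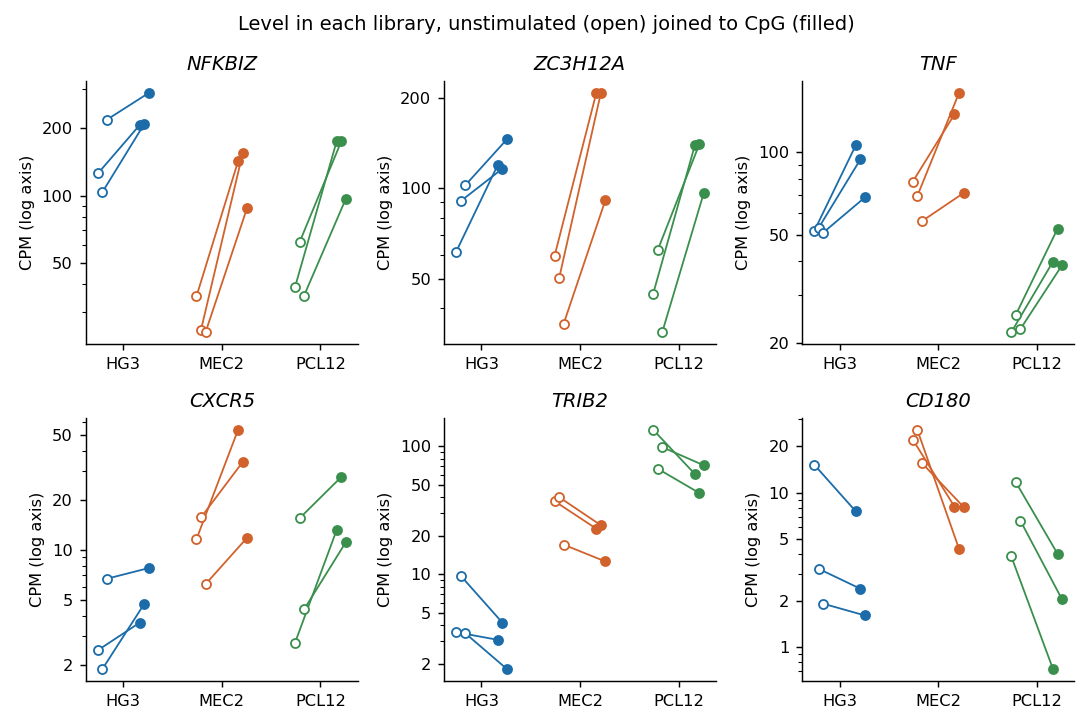
CPM (log axis) of 6 of the genes in each library, by cell line, with unstimulated libraries as open and CpG libraries as filled circles and a line joining the libraries of a pair. All lines rise for NFKBIZ, ZC3H12A, TNF and CXCR5 and all fall for TRIB2 and CD180, from starting levels that differ between the cell lines.

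The other genes that rose encode proteins of various functions. PMAIP1 (NOXA, a proapoptotic BH3-only protein) rose from a median of 90.6 CPM (59.9 to 181) to 129 CPM (80.2 to 242), by 0.20 to 0.82 on the log2 scale in the pairs (Log2FC 0.50 ± 0.082, adjusted p = 0.0397). TCFL5, a basic helix-loop-helix transcription factor, was at 7.82 to 13.3 CPM without and 12.2 to 47.2 CPM with CpG (Log2FC 1.17 ± 0.19, adjusted p = 0.0397). INSIG1, which holds the sterol sensor of the SREBP pathway in the endoplasmic reticulum, was at a median of 220 CPM without and 377 CPM with CpG (Log2FC 0.54 ± 0.091, adjusted p = 0.0397). It was the only 1 of 34 tested genes of cholesterol and fatty acid synthesis to pass the threshold, and 1 other of them was lower in 8 pairs. MFSD2A, a transporter of lysophosphatidylcholine, was at 26.2 to 63.4 CPM without and 37.7 to 103 CPM with CpG (Log2FC 0.77 ± 0.12, adjusted p = 0.0247). MDFIC, a regulator of transcription factors, was at 63.1 to 161 and 89.6 to 211 CPM (Log2FC 0.66 ± 0.12). SGK1, a kinase of the AGC family, was low in HG3 (2.47, 6.64 and 6.77 CPM without, 3.35, 10.1 and 10.2 CPM with CpG) and in PCL12 (2.27 to 7.65 and 6.37 to 14.2 CPM) and highest in MEC2 (15.4 to 35.3 and 26.9 to 47.99 CPM). Its log2 ratio in PCL12 replicate 1, 1.47, stood apart from the others, 0.43 to 0.89 (Log2FC 0.72 ± 0.12, adjusted p = 0.0397).

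TRIB2, a pseudokinase that takes part in protein degradation, fell in all pairs, by 0.20 to 1.21 on the log2 scale (Log2FC -0.72 ± 0.11, adjusted p = 0.0247). Its level did not overlap between the lines, with 3.47 to 9.78 CPM in HG3, 17.1 to 40.2 in MEC2 and 67.1 to 135 in PCL12 unstimulated cells. With CpG it was 1.82 to 4.20, 12.6 to 24.2 and 43.2 to 71.2 CPM. Of NFKBIZ, ZC3H12A, IL6, ZNF385C, OSBPL1A, CD1D and PLXDC1, which the study names, NFKBIZ and ZC3H12A were past a mean of 1 CPM. The others, IL6 among them, did not reach it and were not tested. Further genes that the study names were not part of this check.

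The promoters of the raised genes were searched for the κB sequence (GGGA, any 2 bases, TTCC) on both strands, in the 250 bases before and 50 bases after the transcription start given by RefSeq (GRCh38.p14). It was found in 2 of 13 promoters of the raised genes (15.4%), in 4 of 83 promoters of genes higher in all 9 pairs (4.82%), in 1 of 46 of those lower in all 9 (2.17%), and in 1.64% of the 9687 promoters of tested genes matched by symbol. The 4 are those of NFKBIZ, MAP3K8, MIR3142HG and TICAM1. MIR3142HG hosts the microRNA miR-146a, a brake on TLR signaling, and TICAM1 encodes the adaptor TRIF; both were chosen after their values were seen. The stretches are shown because they carry the match, in capitals, for genes higher in all 9 pairs; each is 120 bases long, runs 5′ to 3′ along the gene's strand and ends before the transcription start.
NFKBIZ, chr3:101827740-101827859, plus strand: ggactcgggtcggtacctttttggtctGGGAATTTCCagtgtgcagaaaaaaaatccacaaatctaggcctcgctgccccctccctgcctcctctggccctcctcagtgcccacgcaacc
MAP3K8, chr10:30433901-30434020, plus strand: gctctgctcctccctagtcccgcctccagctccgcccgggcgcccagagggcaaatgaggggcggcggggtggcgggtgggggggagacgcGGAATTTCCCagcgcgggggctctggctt
MIR3142HG, chr5:160468076-160468195, plus strand: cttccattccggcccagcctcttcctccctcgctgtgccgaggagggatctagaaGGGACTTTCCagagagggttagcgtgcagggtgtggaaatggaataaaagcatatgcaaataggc
TICAM1, chr19:4831768-4831887, minus strand: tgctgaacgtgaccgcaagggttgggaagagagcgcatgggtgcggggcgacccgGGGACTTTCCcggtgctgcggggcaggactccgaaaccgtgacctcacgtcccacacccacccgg
None of these 4 promoters held the AP-1 sequence described next. In MAP3K8 the match reads GGGAAATTCC on the opposite strand. The match began 223 bases before the start in NFKBIZ, 29 in MAP3K8, and 120 in MIR3142HG and TICAM1. MIR3142HG was at a mean of 113.9 CPM with and 60.98 CPM without CpG (Log2FC 0.83 ± 0.19, adjusted p = 0.153), and TICAM1 at 73.8 and 57.9 CPM (Log2FC 0.38 ± 0.098, adjusted p = 0.251). The AP-1 sequence TGANTCA, searched in the same way, was found in 1 of the 13 raised genes, CXCL8, and in CD180, in none of the 83 and 1 of the 46 promoters of genes higher and lower in all 9 pairs, and in 4.44% of the tested promoters.

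Taken by direction alone, 452 genes were higher with CpG in 8 or 9 pairs (3.23% of those tested) and 464 were lower (3.32%). In all 9 pairs, 101 were higher (0.722%) and 68 lower (0.486%). These genes were picked by their direction, so these values describe them without a test. The changes were small: the median Log2FC was 0.44 for the 101 genes and -0.34 for the 68, and of the 452 and 464 genes 16 had a Log2FC of at least 1 and 5 of -1 or less. The median ratio of the 101 genes was smallest in HG3 replicate 3 (median log2 ratio 0.12) and largest in PCL12 replicate 1 (0.62). Nearly all were protein-coding, 96.9% of those matched to the annotation, against 92.2% of all tested genes.

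**Figure D3:**
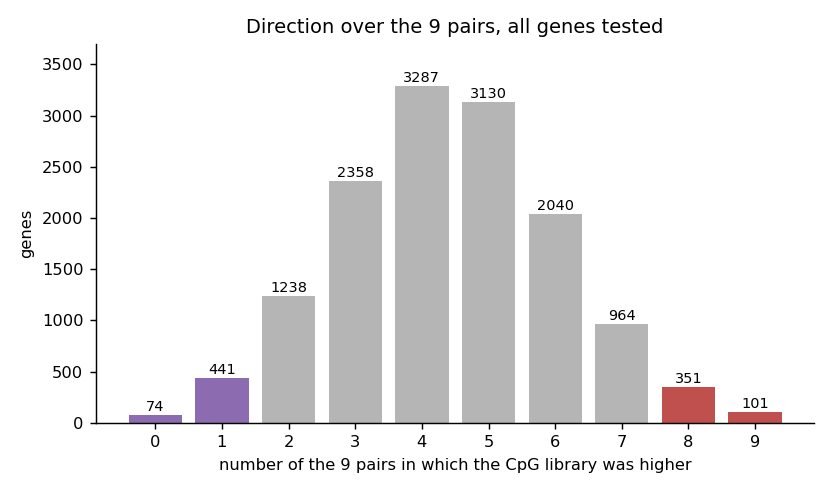
Number of the 13984 tested genes (vertical axis) by the number of the 9 pairs in which the CpG library was higher (horizontal axis), with 0 to 1 pairs in purple and 8 to 9 in red. The bars are highest at 4 and 5 pairs (3287 and 3130 genes), and 101 genes had 9 pairs and 74 had none, of which 68 were lower in all 9 pairs and the rest tied in at least 1.

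The genes named from here to the end of the account of gene groups, other than those past the threshold, were chosen after their values were seen. Feedback regulators of NF-κB, most of them inhibitors, were often higher with CpG. Of 20 tested, 9 were higher in 8 or 9 pairs (45.0%, against 3.23% of all genes), 1 was lower, and the median Log2FC was 0.39, against -0.0022 over all genes. NFKBIZ and ZC3H12A rose. The classical inhibitors NFKBIE and NFKBIA, which retain NF-κB in the cytoplasm, had a Log2FC of 0.40 ± 0.11 and 0.34 ± 0.11, with means of 115 against 93.2 CPM and 529 against 447 CPM. TNFAIP3 (A20), the ubiquitin-editing enzyme, had 0.47 ± 0.12, BIRC3 0.46 ± 0.13 and TRAF3 0.41 ± 0.092, none past the threshold (adjusted p = 0.232, 0.329 and 0.156). Without PCL12 replicates 2 and 3, 12 of the 20 were higher in at least 6 of 7 pairs, as were 7.73% of all genes, and the median was 0.38.

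Among NF-κB subunits and kinases, 1 of 17 rose (MAP3K8), 4 were higher in 8 or 9 pairs and none was lower (median Log2FC 0.09). RELB, REL and NFKB1, subunits of the factor itself, were the other three, at 0.53 ± 0.11, 0.58 ± 0.16 and 0.45 ± 0.15. Of 21 genes of the TLR9 pathway upstream, none was past the threshold, 2 were higher (TRAF3 and IRF5) and 1 lower (UNC93B1, the chaperone of TLR9) in 8 or 9 pairs, and the median was 0.03. Of 26 tested cytokines and chemokines 3 rose, and CCL22 and VEGFA were also higher in 8 pairs, CCL22 at means of 699.9 and 488 CPM (Log2FC 0.43 ± 0.12, adjusted p = 0.297).

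Surface genes of activated B cells were higher in 11 of 34 (32.4%) and lower in 1, with a median of 0.18. CXCR5 rose. CD80, a ligand of CD28, went from a mean of 82.6 to 122 CPM (Log2FC 0.60 ± 0.13, adjusted p = 0.111). CD44, a hyaluronan receptor, was at 386 and 573 CPM (0.60 ± 0.12, adjusted p = 0.0849) and ICAM1 at 414 and 565 CPM (0.51 ± 0.12, adjusted p = 0.198). The chemokine receptor CCR7 and CD274 (PD-L1) were higher in all 9 pairs too (0.35 ± 0.090 and 0.46 ± 0.14). TNFRSF13C, the BAFF receptor, was the 1 gene lower (-0.26 ± 0.12).

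Genes that act on mRNA stability, with microRNA hosts, were higher in 7 of 16 (43.8%) and lower in 1 (median 0.26); ZC3H12A and ZC3H12C belong to this list and to that of NF-κB inhibitors. ZC3H12C was higher in 9 pairs (0.54 ± 0.12) and ZC3H12D in 8 (0.38 ± 0.12). The decay factor ZFP36 was lower in 8 pairs (-0.32 ± 0.097), while its relatives ZFP36L1 and ZFP36L2 were higher in 8 and 9 (0.25 ± 0.10 and 0.24 ± 0.080). MIR17HG, the host of the miR-17-92 cluster, was at 52.6 and 24.0 CPM (0.76 ± 0.33).

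Among 27 genes of the BCL2 family and apoptosis, 6 were higher, 1 was lower and 1 (PMAIP1) passed the threshold (median 0.02). The survival genes BCL2L1 (0.61 ± 0.14), CFLAR (0.44 ± 0.11), BCL2A1 (0.39 ± 0.11) and BCL2 (0.34 ± 0.10) and the proapoptotic BCL2L11 (0.24 ± 0.11) were among those higher. In the STAT, SOCS and PIM list 5 of 28 were higher and 2 lower (median 0.17), with the kinases PIM1 (0.83 ± 0.16, adjusted p = 0.0849) and PIM2 (0.54 ± 0.10, adjusted p = 0.081) in front and the phosphatase PTPN6 lower (-0.38 ± 0.12). Of 39 immediate early and ERK feedback genes 6 were higher and 2 lower (median 0.09), and KLF2, a quiescence factor of lymphocytes, was lower in 8 pairs (-0.64 ± 0.17).

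Of the B-cell receptor signaling genes, 6 of 33 were lower (18.2%, against 3.32% of all genes) and 4 higher (12.1%, against 3.23%). The median was -0.14, and none was past the threshold. The inhibitory receptor FCGR2B was at 10.5 and 17.1 CPM (-0.66 ± 0.20, adjusted p = 0.361) and the phosphatase PTPN22 at 45.0 and 58.4 CPM, lower in 9 pairs (-0.34 ± 0.095, adjusted p = 0.318). The kinase BTK, the phospholipase PLCG2 and the exchange factor VAV1 had -0.17, -0.19 and -0.19, and the lipid kinase PIK3CD was higher (0.44 ± 0.12). LYN, VAV2 and RASGRP3 were the others higher in 8 pairs (0.20, 0.24 and 0.20). Among 24 identity factors of B cells 5 were higher and 3 lower (median 0.05). POU2F2 (OCT2, 0.51 ± 0.12), IKZF1 (0.50 ± 0.12) and IRF8 (0.43 ± 0.11) were higher, and ID3, an inhibitor of E proteins, was lower in all 9 pairs, at 19.3 and 35.7 CPM (-0.76 ± 0.19, adjusted p = 0.226).

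Interferon-stimulated genes were not higher in 8 or 9 pairs in any of 39 cases, and 4 were lower (10.3%), with a median of -0.11. In 7 pairs, either without PCL12 replicates 2 and 3 or without HG3 replicate 2 and MEC2 replicate 2, 13 were lower in at least 6. That was 33.3% of the list, against 7.83% and 9.75% of all genes, and none was higher. OAS1, a sensor of double-stranded RNA, was lower in all 9 pairs, at means of 57.2 and 74.0 CPM (-0.36 ± 0.098, adjusted p = 0.275). Of 45 genes of ribosome biogenesis and partners of MYC such as MAX, 5 were higher and none lower (median 0.10), and the 5 (WDR12, POLR1C, NOLC1, NIP7 and PUS7) act in RNA or ribosome production. In the remaining lists few genes were in either set: antigen presentation had 1 of 29 higher and none lower, cell cycle 1 of 44 higher and 2 lower, glycolysis and hypoxia 2 of 35 higher, unfolded protein and stress response 2 of 36 higher, and cholesterol and fatty acid synthesis 1 of 34 in each direction. In the 7 pairs without HG3 replicate 2 and MEC2 replicate 2, in at least 6 pairs, 7 of 35 glycolysis and hypoxia genes (20%), 5 of 29 antigen presentation genes (17.2%) and 5 of 36 unfolded protein and stress response genes (13.9%) were higher, against 7.96% of all genes, and 7 of 44 cell cycle genes (15.9%) were lower, against 9.75%. Of the 15 mitochondrially encoded genes none was in either set (median -0.19). In 7 pairs, either without PCL12 replicates 2 and 3 or without HG3 replicate 2 and MEC2 replicate 2, 7 of the 15 were lower in at least 6 (46.7%, against 7.83% and 9.75% of all genes). Of the B-cell markers 1 of 12 was higher, of the T and NK cell markers tested 1 of 4 was lower, and of 1 myeloid and 7 stromal or epithelial markers none was in either set. Without PCL12 replicates 2 and 3, 4 of the 12 B-cell markers were lower in at least 6 of 7 pairs and 2 were higher. These were 33.3% and 16.7%, against 7.83% and 7.73% of all genes. Without HG3 replicate 2 and MEC2 replicate 2, 2 were lower and 1 higher (16.7% and 8.33%, against 9.75% and 7.96%). The markers of other cells summed to 72.8 to 184 CPM with and 68.9 to 209 CPM without CpG for T and NK cells, to 1.82 to 9.26 and 0.901 to 7.15 CPM for myeloid cells and to 20.4 to 65.4 and 13.1 to 118.5 CPM for stromal and epithelial cells.

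**Figure D4:**
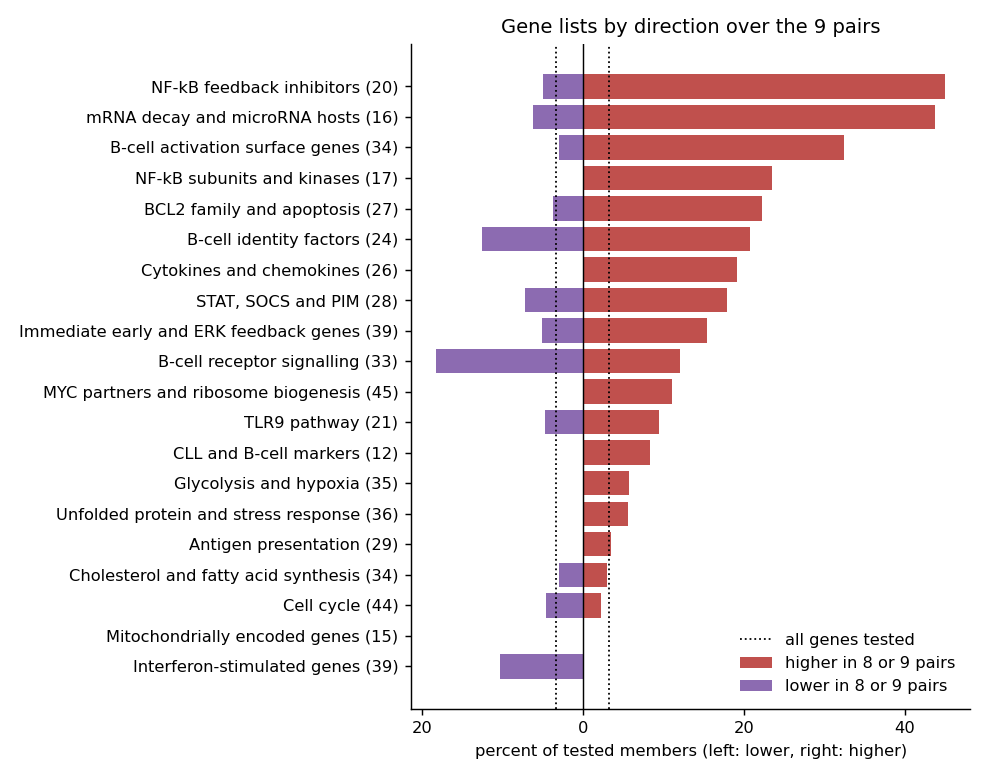
Percent of the tested members of each gene list (number tested in parentheses) that were higher with CpG in 8 or 9 of the 9 pairs (red, to the right) or lower (purple, to the left), with dotted lines at the 3.23% and 3.32% of all tested genes. NF-κB feedback inhibitors reach 45.0% on the right, and B-cell receptor signaling reaches 18.2% on the left and 12.1% on the right.

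Whether 1 effect describes the 3 lines was examined in a fit with an effect for each line. No gene differed between the lines at an adjusted p under 0.05 (0% of 13984 genes, 292 at a nominal p under 0.05, edgeR), while limma-voom gave none, DESeq2 18, and edgeR with the filter of at least 10 counts summed 38. On simulated counts with a change in HG3 alone, edgeR called 11 unchanged genes beside 140 recovered, limma-voom 12 beside 135 and DESeq2 47 beside 154. HG3 had the smallest effect for 10 of the 13, and the median Log2FC of the 13 was 0.61 in HG3, 0.95 in MEC2 and 0.89 in PCL12. Over all tested genes, HG3 had the smallest effect for 3984 of 13984. NFKBIZ had a Log2FC of 0.71 ± 0.20 in HG3, 2.16 ± 0.21 in MEC2 and 1.70 ± 0.20 in PCL12 (edgeR, nominal p 0.000596, adjusted p = 0.931), and ZC3H12A 0.61 ± 0.18, 1.74 ± 0.18 and 1.45 ± 0.18 (adjusted p = 1). The estimates lay within 1 SE of each other for TNF, at 0.77 ± 0.19, 0.81 ± 0.19 and 0.89 ± 0.19, and for TRIB2, at -0.78 ± 0.22, -0.63 ± 0.20 and -0.75 ± 0.20 (edgeR, adjusted p = 1 for both). In PCL12, where the libraries of replicates 2 and 3 had the MEC2-high genes at 29.0% to 31.3% of the MEC2 level, the median log2 ratio of the 13 genes was 1.28 in replicate 1, 0.71 in replicate 2 and 0.69 in replicate 3.

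**Figure D5:**
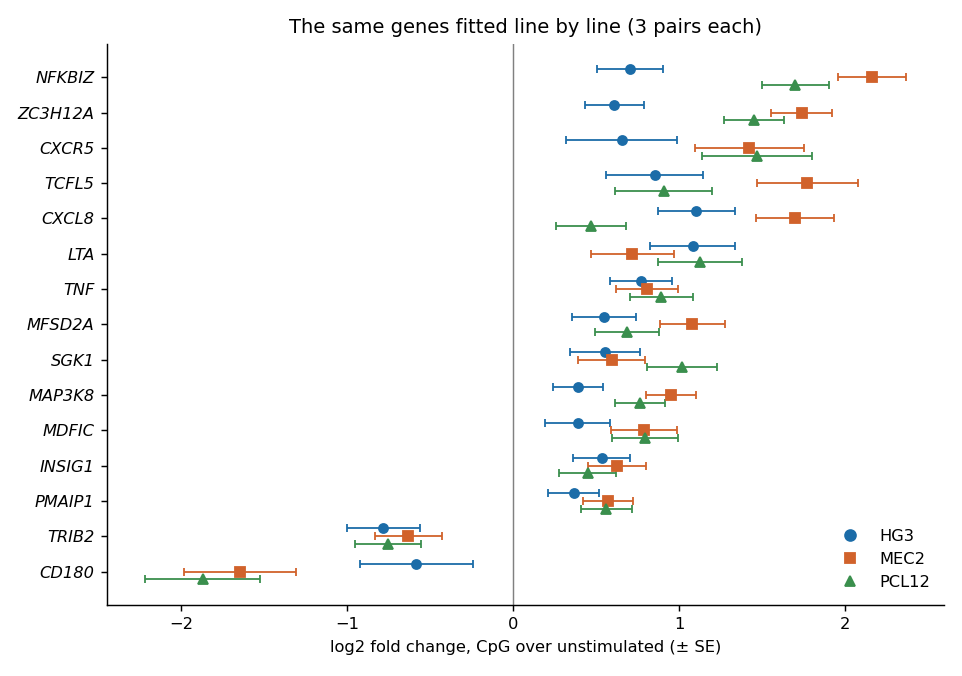
Log2FC with SE in HG3 (blue circles), MEC2 (orange squares) and PCL12 (green triangles) for the same 15 genes, from the fit with an effect for each line over 3 pairs each. HG3 lies closest to 0 for 10 of the 13 raised genes, among them NFKBIZ and ZC3H12A, and the lines lie together for TNF and TRIB2.

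A line that had not been used to call the genes gave a further description. A fit of MEC2 and PCL12 alone called 37 genes higher and 6 lower. In HG3, 33 of the 37 had a mean ratio above 1 (52.4% of all genes), 18 of them in all 3 pairs (9.74% of all genes), and 5 of the 6 had a mean ratio below 1 (47.4%), 3 in all pairs (10.5%). The 4 others, named after their values were seen, were WNT10A, BATF, EBI3 and SPIB, and the 1 other among the lower genes was CCR1. The fits without MEC2 and without PCL12 called no gene at an adjusted p under 0.05, so the same count could not be made for these lines.

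At the thresholds of the study's methods, a nominal p under 0.01 and a |Log2FC| of at least 1, the pooled effect held 13 genes higher (0.093%) and 3 lower (0.0215%).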

How the data were processed

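RNA from HG3, MEC2 and PCL12 cells was sequenced, and the authors deposited raw counts per gene symbol without normalization, in 1 table of 18 libraries (every column was used). The submitters' processing notes name FastQC, Trimmomatic, STAR, featureCounts, MultiQC and the build hg38. Versions, annotation release, strand setting and treatment of duplicates are not given in the sources used here. The labels name a Lexogen QuantSeq kit, which reads 3′ ends, and the paper a stranded reverse protocol, so differences in level between genes were not read, and where strand was ignored, reads of overlapping antisense genes cannot be told apart.

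The deposited counts were fitted in edgeR 4.0.16 (R 4.3.3) with TMM factors, 9 pair blocks, 1 CpG effect (8 residual degrees of freedom) and robust quasi-likelihood dispersions for genes with a mean CPM of 1 or more, and p values were adjusted by Benjamini-Hochberg over 13984 genes. The SE was derived from the Log2FC and its F value. Pair ratios used a prior count of 2. limma 3.58.1 (voom), DESeq2 1.42.0, no block, RLE or no scaling, other filters and left-out pairs or lines were alternatives. The series description gives each replicate 1 stimulated and 1 unstimulated sample, which is the source of the pairing. Deviations of log CPM from the mean of the group's libraries correlated within pairs at 0.193 to 0.610, except for MEC2 replicate 2 (-0.0145). No libraries were identical (chi-square per gene between replicates 17.4 to 380). Genes named are those past an adjusted p of 0.05 with the same direction in 8 or 9 pairs, and list members past it. Also named are the tested genes among those of the paper listed above and the 5 with the smallest p for a line difference. Others are marked. Members and the 23 lists were chosen with earlier results of these data known. On simulated counts of the 13984 genes, the pooled fit recovered 155 of 200 genes raised or lowered by a Log2FC of 1. It called 12 unchanged ones. In the same simulation limma-voom recovered 161 and called 25 unchanged genes, and DESeq2 recovered 168 and called 31. Positions are from GENCODE release 44 and RefSeq, matched for 12381 and 9687 symbols. Python 3.11.15 was used for these steps.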

Additional observations from a re-analysis of the deposited data

Results flagged for a closer look

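Of 40 tests of the highest and lowest pair ratios of the named genes, 2 ratios stood apart from the other 8 by more than Dixon's 95% limit. That limit covers both ends of a gene, so chance flags about 1 gene in 20. The log2 ratio of SGK1 was 1.47 in PCL12 replicate 1. That of LINC00839, a long noncoding RNA, was -4.63 in MEC2 replicate 2, where 32 counts in the unstimulated library stood against 0 in the other 5 MEC2 libraries.

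For a pair of genes, the libraries of 1 line moved up while those of another moved down. ZNF831, which encodes a zinc finger protein, had the smallest p for a difference between the lines (7.35e-05, adjusted p = 0.765, edgeR): 6, 7 and 11 counts in stimulated and none in unstimulated HG3 libraries, against medians of 12.3 and 15.6 CPM in MEC2 and 6.43 and 7.57 CPM in PCL12. GSTM1, a glutathione transferase with close paralogs whose reads could be shared, had a difference p of 0.000265 (adjusted p = 0.765, edgeR). It had 18, 20 and 2 counts in stimulated and 3, 1 and 0 in unstimulated MEC2 libraries, and 0, 15 and 0 against 1, 26 and 4 in HG3. Other fits put both past the threshold, with an adjusted p for ZNF831 of 0.00229 by DESeq2 and 0.000544 with the filter of 10 counts summed, and for GSTM1 of 0.00814 and 0.0101, whereas limma-voom gave 0.999 for each. The HG3 counts of ZNF831 and the counts of GSTM1 in both lines were low.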

How the results depend on the processing

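Counts are given as higher and lower genes. At an adjusted p under 0.05 (13 and 2), the numbers were 109 and 23 by DESeq2, 37 and 6 by limma-voom, 3 and 0 with no replicate block (so that pairing raised the count), 48 and 5 with at least 10 counts summed, 13 and 1 with library totals, and 0 and 0 without PCL12 replicates 2 and 3. They were 37 and 6 leaving out HG3 and 0 and 0 leaving out MEC2 or PCL12. With 1 pair left out they ran from 0 to 18 and from 0 to 2. At the nominal thresholds (13 and 3), DESeq2 gave 20 and 6, limma-voom 9 lower, the summed filter 26 and 10, filterByExpr 20 and 7, leaving out HG3 28 and 8 and leaving out MEC2 5 higher, and left-out pairs gave 10 to 18 and 2 to 5. Genes of the same direction in all or all but 1 pair (452 and 464) were 1081 and 1095 without PCL12 replicates 2 and 3, 1113 and 1364 without HG3 replicate 2 and MEC2 replicate 2, 1704 and 1830, 1358 and 1575, and 1458 and 1569 leaving out HG3, MEC2 and PCL12, and 559 to 816 and 618 to 829 with 1 pair left out, since fewer pairs have to match. Line differences (0) were 18 by DESeq2 and 38 with the summed filter. The mitochondrial share difference was -2.14 to 0.753 with 1 pair left out. The other causes were not tested. The direction of the 15 genes past the threshold, which their choice largely fixes, stayed the same, and TNF stayed under an adjusted p of 0.05 in 17 of 21. Genes of a few CPM rest on little depth.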

Other observations

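The other genes with the smallest p for a difference between the lines (adjusted p = 0.765 each by edgeR, 0.999 by limma-voom) were LINC00839, IGLV2-23 and TIGIT. By DESeq2 and by edgeR with the filter of 10 counts summed, the adjusted p was 0.000136 and 1.47e-05 for IGLV2-23, 0.00802 and 0.00191 for TIGIT, and 1 and 2.35e-07 for LINC00839. LINC00839 was at 20.1 to 33.1 CPM with and 16.9 to 30.5 CPM without CpG in HG3, and at 24, 5 and 0 counts with and 0, 0 and 1 counts without CpG in PCL12. IGLV2-23, a light chain variable segment whose reads can be shared with related segments, was at 665 to 1975 CPM with and 713 to 1806 CPM without CpG in HG3, and at 0 counts with and 6, 18 and 3 counts without CpG in PCL12. TIGIT, an inhibitory receptor of lymphocytes, was at 5.64 to 8.58 CPM with and 1.99 to 3.64 CPM without CpG in MEC2, at 8.83 to 21.8 and 6.19 to 10.6 CPM in PCL12, and at 0 counts with and 0, 7 and 7 counts without CpG in HG3.

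Some genes outside the lists, chosen after their values were seen, were also higher in all 9 pairs, among them LINC00926 (Log2FC 0.95 ± 0.17, adjusted p = 0.0595), the elongation factor ELL2 (0.61 ± 0.12, adjusted p = 0.0779), SKIL (0.60 ± 0.12, adjusted p = 0.0849) and the oxytocin receptor OXTR (0.96 ± 0.21, adjusted p = 0.149). Lower in all 9 were RHOBTB2 (-0.55 ± 0.11, adjusted p = 0.0894), FCRLA (-0.51 ± 0.13, adjusted p = 0.214) and the chemokine receptor CXCR3 (-0.43 ± 0.13, adjusted p = 0.368).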
